A study of Sus scrofa with 4 samples.

Results

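Peaks of H4K12la, lactylation of lysine 12 on histone H4, that lie deep inside very long genes were described in the livers of late-gestation sows. A peak was taken when its summit lay on chromosomes 1 to 18, inside a protein-coding RefSeq gene of Sscrofa11.1 longer than 300 kb, and more than 10 kb from both ends of that gene. This gave 3349 of the 28283 peaks of the high bile acid list and 688 of the 5735 peaks of the low bile acid list, 4037 of 34018 in all. They fell in the interiors of 665 such genes among 18722 coding genes on these chromosomes, 17 of the 665 with a provisional LOC name. Each gene was used from its lower to its higher annotated coordinate, since strand and exons were not used here. Exons, introns and UTRs were therefore not told apart.

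The low bile acid group, called normal in the series' design, was set against a high bile acid group, and the series' title concerns c-JUN signalling and intrahepatic cholestasis in pregnancy, in which bile acids build up in the mother. Both groups were female liver in late gestation with the cell type given as hepatocytes, and each had 1 immunoprecipitated and 1 input library. Breed, age, treatment, read depth and whether a library pooled several animals are not given in the labels. The share of cells that carry the mark and its amount per cell cannot be told apart in such libraries. With 1 library a group there was no test between groups. All intervals are exact 95% intervals for counting error alone, and amplified reads without molecular identifiers are not independent molecules.

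Histone lactylation is an acyl mark built from lactate, and acyl marks on histone tails are best known from promoters and enhancers. Very long mammalian genes are mostly intron, so a position deep inside one is far from the annotated start and can hold enhancers of that gene or of its neighbours. Many of these genes encode adhesion molecules, channels and scaffolds that are best known from neurons, and others encode signalling enzymes and transcription regulators that the liver also uses. Several span common fragile sites, where long transcription units replicate late.

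Deep interiors held fewer peaks than their length would give. They took up 15.4% of the autosomal sequence (349.2 Mb of 2265 Mb, measured to the last annotated gene of each chromosome) and 11.9% of the high-list peaks (95% interval 11.5 to 12.3%). The share was 12.0% in the low list (11.2 to 12.9%). Per Mb of deep interior the high list had 9.59 peaks (9.27 to 9.92) against 12.5 over all autosomes, a ratio of 0.770 (0.745 to 0.795). The low list had 1.97 per Mb (1.82 to 2.12) against 2.53, a ratio of 0.779 (0.725 to 0.835). The rule leaves out most gene ends, while the autosomal rates keep them. Sequence within 1 kb of a gene end had 34.2 high-list and 6.33 low-list peaks per Mb. Ratios with gene ends removed from both sides were not computed. The lists differ greatly in length, so the rates cannot be set side by side, and the high-list ratio itself moved when that list was cut. With the high list held to the low list's number of peaks by smallest p-value it was 0.648 (0.598 to 0.6999). That cut changes list length and p-value rank together. The peaks it keeps are not matched to the whole low list. Sequence outside all annotated genes was at a ratio of 0.814 in both lists. Deep interiors were below it in the high list, where the interval for intergenic sequence (0.801 to 0.827) does not reach theirs. In the low list they were not told apart from it (0.786 to 0.843). Intergenic sequence starts at gene ends, where peaks were dense, and the interiors hold few such ends. Whether the high-list order holds farther from gene ends was not tested.

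Longer classes of genes had lower pooled rates. Genes of 300 to 500 kb (420 genes) had 11.6 high-list peaks per Mb (11.03 to 12.1), those of 500 kb to 1 Mb (187 genes) 9.21 (8.67 to 9.77), and those over 1 Mb (58 genes) 6.37 (5.83 to 6.95). Low-list peaks in the same classes came to 2.25 (2.01 to 2.497), 1.84 (1.602 to 2.098) and 1.64 (1.37 to 1.95) per Mb, and neighbouring classes have intervals that overlap. Gene by gene the trend was weak in the high list and near 0 in the low list: over the 665 genes, which are not independent replicates, Spearman rho of peaks per Mb and gene length was -0.13 (high) and 0.013 (low). Shorter genes measured the same way lay higher. Interiors of genes of 100 to 300 kb had 12.5 per Mb (high) and 2.88 (low), and those of genes of 30 to 100 kb had 15.1 and 2.99.

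**Figure D1:**
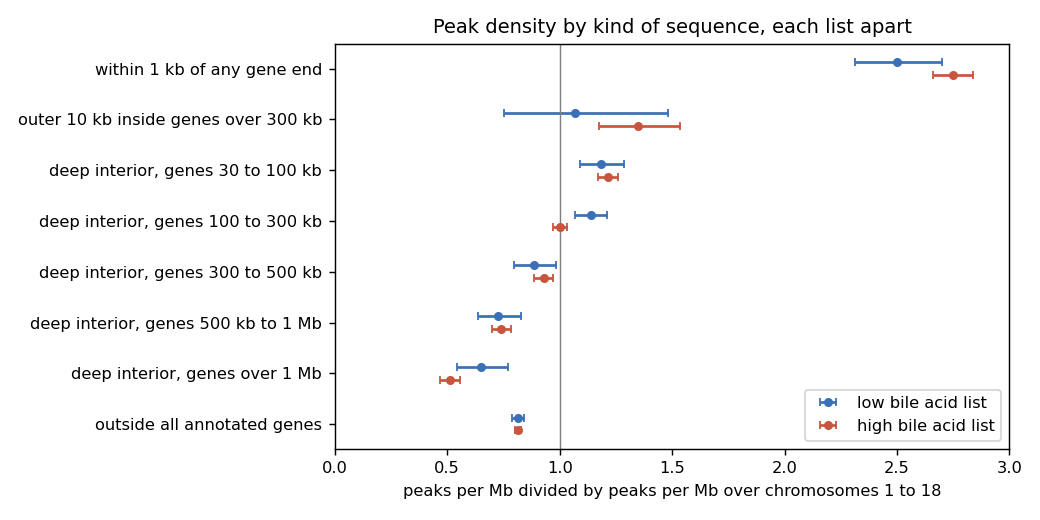
Peaks per Mb in each kind of sequence divided by peaks per Mb over chromosomes 1 to 18 (x axis, no unit), for the low (blue) and high (red) list. Points are ratios and bars exact 95% intervals. Both lists step down from genes of 30 to 100 kb to genes over 1 Mb, where the ratios are 0.649 (low) and 0.511 (high).

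The surroundings of the longest genes were also poorer in peaks. In the 500 kb on either side, the high list had 12.1 peaks per Mb around genes of 300 to 500 kb, 10.7 around genes of 500 kb to 1 Mb and 8.005 around genes over 1 Mb (7.28 to 8.78). Inside, the rates were 0.957, 0.858 and 0.796 times those of the flanks. For low-list peaks the flanks had 2.596, 2.14 and 2.01 per Mb, and the inside rates were 0.865, 0.859 and 0.818 times as high. The flanks held a median of 10, 9 and 7 annotated genes in these 3 classes. They keep the ends of those genes, while the rule leaves most gene ends out of the inside. Inside and flank rates therefore compare unlike sequence. Over the 665 genes, peaks per Mb inside and the number of annotated genes in the flanks had a Spearman rho of 0.321 (high) and 0.128 (low). Peaks per Mb inside and in the flanks had a Spearman rho of 0.508 (high) and 0.119 (low), and inside and flank values of a gene come from the same library. Of the 665 genes, 386 were less dense inside than in their flanks by high-list peaks and 361 by low-list peaks.

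Within these genes the peaks were densest at the ends, and those of the high list were sparsest in the innermost sequence. In the high list the outermost 1 kb inside either gene end had 32.3 peaks per Mb (23.4 to 43.5), 1 to 2 kb had 21.8, 2 to 5 kb 16.5 and 5 to 10 kb 12.8. Past the 10 kb limit of the rule the rate was 10 at 10 to 20 kb, 11.4 at 20 to 50 kb, 10.65 at 50 to 100 kb and 10.3 at 100 to 200 kb. Beyond 200 kb from both ends, which only genes over 400 kb reach, it was 7.49 (6.99 to 8.02). Low-list peaks in the outermost 1 kb came to 6.77 per Mb (3.09 to 12.9) on 9 peaks, those at 20 to 50 kb to 1.98 and those over 200 kb deep to 1.70 (1.47 to 1.96). When each interior was cut into 10 equal parts by coordinate, the parts held 9.38 to 11.14% of the high-list peaks and 8.58 to 11.3% of the low-list peaks.

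**Figure D2:**
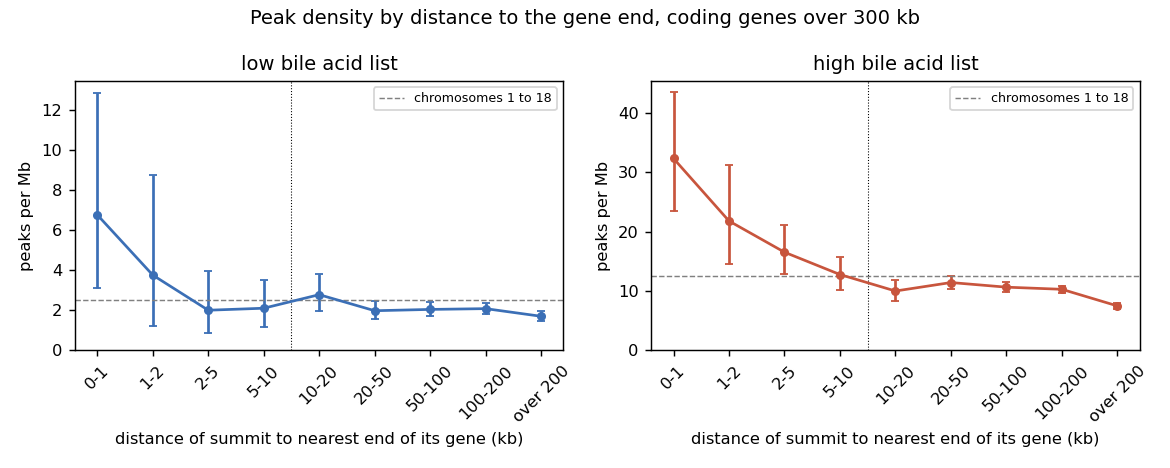
Peaks per Mb (y axis) by distance of the summit to the nearest end of its gene (x axis, kb) in the 665 coding genes over 300 kb, for each list. Bars are exact 95% intervals, the dashed line is the autosomal rate and the dotted line the 10 kb limit. The high list goes from 32.3 per Mb at the gene end to 7.49 per Mb beyond 200 kb.

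The limits of the rule fell in ordinary sequence. CHN2, at 300.4 kb just inside, had 2 high-list and 0 low-list deep peaks, and MYLK, at 299.8 kb the longest gene outside, had 7 and 1. The high-list summits nearest to the distance limit lay 10069 bp from an end of ADAMTSL3 (inside, fold 3.22) and 9551 bp from an end of ASTN1 (outside, fold 2.68). The nearest low-list summits were 10799 bp deep in MAD1L1 (fold 3.54) and 9734 bp deep in NXPH1 (fold 2.89). Fold, here and in what follows, is the enrichment over local background that the authors' caller gave for the summit.

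Single deep peaks were much like other peaks of their list, with fewer strong ones. The median fold was 2.90 in the high list, as in the other autosomal peaks of that list (2.90), and 2.997 against 2.975 in the low list. Median widths were 345 bp (high) and 342.5 bp (low), against 356 and 337 bp. The count of fragments behind a summit, recovered from fold and p-value, had a median of 9 for high-list peaks (range 6 to 15) and 10 for low-list peaks (range 7 to 16). The largest counts among the other autosomal peaks were 734 (high) and 321 (low), so the peaks on the deepest pileups lay outside these interiors. The expected background of those other peaks reached 397.9 (high) and 117 (low). Their fold was at most 5.70 and 5.07, so such counts do not stand for a large fold. In the high list 42 of 3349 deep peaks (1.25%; 0.905 to 1.69%) had q under 0.05, the authors' value against the library's own input, where 2.13% of all autosomal peaks did. Of the other autosomal peaks 2.25% (2.07 to 2.44%) did so. A fold of 4 or more was reached by 79 deep peaks (2.36%), with 3.14% over the autosomes, and a width of 700 bp or more by 53 (1.58%), with 2.66% over the autosomes. Of the 688 low-list deep peaks 0 had q under 0.05 (95% interval 0 to 0.535%), where 0.209% of autosomal low-list peaks did. A fold of 4 or more was reached by 4 of them (0.581%), with 1.38% over the autosomes, and a width of 700 bp or more by 5 (0.727%), with 0.925% over the autosomes. Summits within 1 kb of an end of another annotated gene numbered 30 in the high list (0.896%), with 11.4% over the autosomes, and 6 in the low list (0.872%), with 10.4%. The rule leaves little such sequence, 1.945 Mb of the 94.3 Mb on the autosomes. Per Mb these places had 15.4 high-list peaks (10.4 to 22.01), against 9.56 (9.23 to 9.89) in the rest of the interiors, and 3.08 low-list peaks (1.13 to 6.71), against 1.96 (1.82 to 2.12).

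Peaks of smallest p-value were less often deep than those of middle rank in the high list. The quintile of the high list with the smallest p-values held 9.85% deep peaks (9.08 to 10.66%), the next 3 held 12.6 to 12.8%, and the last, with the largest p-values, 11.4% (10.61 to 12.3%). Low-list quintiles held 10.1 to 13.7%, and the interval of the first, at 11.08% (9.32 to 13.04%), overlaps each of the others.

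Deep peaks were less crowded, a measure that is not independent of their lower number of peaks per Mb. The nearest peak of the same list lay at a median of 27.5 kb (high) and 174 kb (low), against 17.8 and 103 kb for the other autosomal peaks. A neighbour within 10 kb was found for 24.99% of the high-list deep peaks (23.5 to 26.5%) and for 35.3% of the others (34.7 to 35.9%). For the low list these shares were 5.81% (4.19 to 7.83%) and 9.24% (8.46 to 10.1%). Runs of at least 3 high-list peaks with gaps of at most 10 kb numbered 59, in 52 genes, and 9 runs held 4 or more. Runs were counted inside deep interiors only, so how common they are among other autosomal peaks is not known here. The longest run by number had 5 peaks in GSE1, chromosome 6, 3521544 to 3543825, and the tightest run of 4 lay in DSCAM, a neuronal adhesion gene, within 7.75 kb at chromosome 13, 204119965 to 204127718. Other runs of 4 were in MSI2, CAMTA1, DENND1A, CTIF, ASAP1, ADAM12 and again GSE1. The low list had 1 run of 3, in SCFD2 at chromosome 8, 39848437 to 39863799.

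Of the 665 genes, 622 (93.5%) had at least 1 deep peak in the high list, with a median of 4 a gene, and 400 (60.2%) had at least 1 in the low list, with a median of 1. Among all 18722 coding genes on these chromosomes, 41.3% held a high-list and 13.8% a low-list peak anywhere inside. A longer gene has more sequence in which a peak can fall, so these shares do not compare peaks per Mb. Peaks per Mb by gene ranged from 0 to 61.0 in the high list, with a median of 8.36 and quartiles at 4.61 and 14.2. The low-list range was 0 to 18.8, with a median of 1.78. The number of peaks followed gene length only loosely, with a Spearman rho of 0.317 (high) and 0.295 (low) over the 665 genes. The 10 genes with most peaks held 231 of the 3349 high-list and 59 of the 688 low-list peaks. The genes named below were picked by these counts, so their rank is a description.

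**Figure D3:**
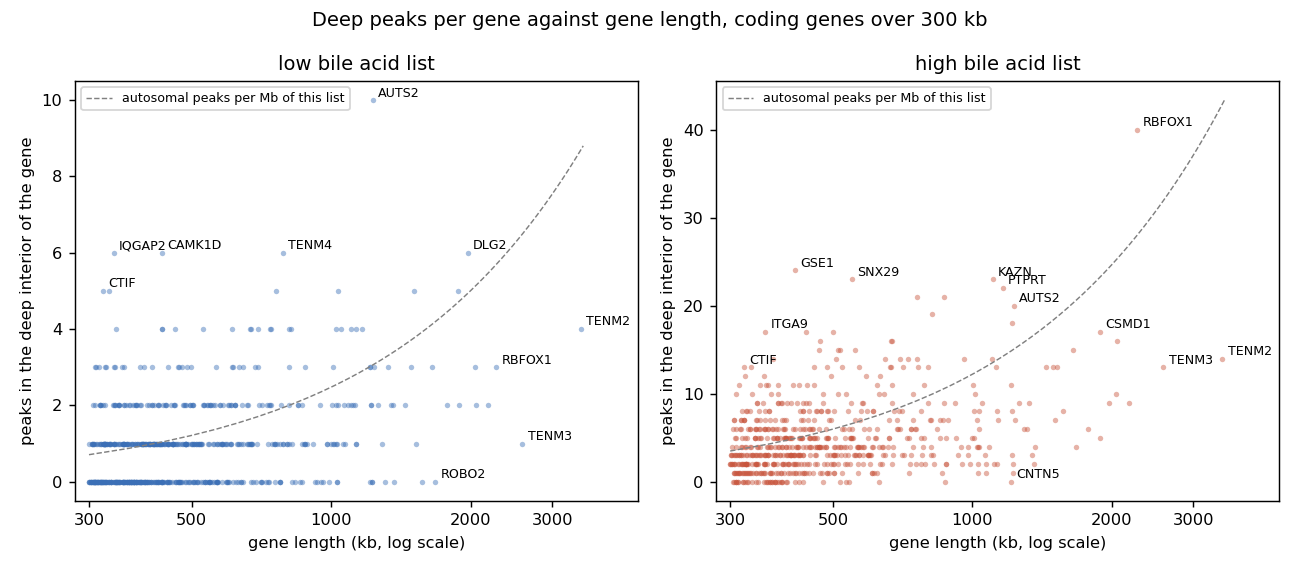
Number of deep peaks (y axis) against gene length (x axis, kb, log scale) for the 665 coding genes over 300 kb, for each list. The dashed curve is the number that the autosomal rate of that list would give. GSE1 (24 high-list peaks) and AUTS2 (10 low-list peaks) lie above it, and the longest gene, TENM2 (14 and 4), lies below it in both lists.

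RBFOX1, which encodes an RNA-binding regulator of splicing, had most deep peaks of the high list, 40 along 2271 kb at chromosome 3, 34938703 to 37209772. That is 17.8 per Mb (12.7 to 24.2), with 24 per Mb in its flanks, and the low list had 3 peaks there (1.33 per Mb; 0.275 to 3.90). The rate was 1.43 times the autosomal rate in the high list and 0.527 times in the low list, and its high-list rate was well above the 6.37 per Mb of all genes over 1 Mb. No RBFOX1 peak reached q under 0.05, and the strongest had a fold of 3.70.

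GSE1, which encodes a coiled-coil protein found with histone demethylase complexes, was the densest gene of the high list. It had 24 deep peaks along 413.5 kb at chromosome 6, 3244167 to 3657636, or 61.0 per Mb (39.1 to 90.8), 4.89 times the autosomal rate, and its flanks had 34 per Mb. The low list had 1 peak in GSE1 (2.54 per Mb; 0.0643 to 14.2), near the autosomal rate of that list, and 8 per Mb in the flanks. Folds of the 24 peaks ran from 2.08 to 3.98, and the peak of highest fold, on 13 fragments with q 0.0399, lay 90.1 kb from the lower end of the gene. A second peak, of fold 3.94, lay at 90.9 kb.

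SNX29, a sorting nexin gene, followed with 23 high-list peaks, 43.5 per Mb (27.6 to 65.3), against 23 in its flanks, and 2 low-list peaks. ITGA9, the integrin alpha 9 subunit gene, had 17 high-list peaks in 357.2 kb, 50.4 per Mb (29.4 to 80.7), against 21 in its flanks, and 3 low-list peaks (8.896 per Mb; 1.835 to 26). RALGPS1, which encodes an exchange factor for Ral GTPases, had 13 high-list peaks (41.5 per Mb) and 1 low-list peak. In these 3 genes the high-list rate inside was above that of the flanks (28 per Mb for RALGPS1), as it was in 279 of the 665 genes. KAZN, which encodes a protein of cell junctions, had 23 high-list peaks (21.2 per Mb) and 2 low-list peaks. PTPRT, a receptor tyrosine phosphatase gene, had 22 and 4. DPP6, an auxiliary subunit of potassium channels, had 21 and 1. CAMTA1, a calmodulin-binding transcription activator, also had 21 and 1. Rates of these 4 genes were 1.54 to 2.29 times the autosomal high-list rate. That of CAMTA1 was under its flanks (33 per Mb), and those of the other 3 were within 3 per Mb of theirs.

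NAV2, a neuron navigator gene, had 19 high-list and 4 low-list peaks, and DAB1, an adaptor of reelin signalling, 18 and 2. The high-list rate of NAV2, 23.8 per Mb, was above the 12 of its flanks, while that of DAB1, 15.03, was close to its flanks at 16.

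AUTS2, which encodes a chromatin-associated regulator best known from neural development, was the 1 gene among the 10 with most peaks in both lists. It had 10 low-list peaks, 8.27 per Mb (3.97 to 15.2), 3.27 times the autosomal rate of that list, and 20 high-list peaks, 16.5 per Mb (10.1 to 25.6), 1.33 times. The gene spans 1229 kb at chromosome 3, 13565439 to 14794365. In both lists most of the peaks lay in the part of higher coordinates, beyond 700 kb from the lower end, and none of the 10 low-list peaks overlapped a high-list peak. The low-list peak of highest fold, 3.94 on 12 fragments with q of 1, lay 82.6 kb from the lower end, and a high-list peak of fold 2.58 lay at 81.8 kb. The high-list peak of highest fold, 4.05 on 12 fragments with q 0.0478, lay at 858.0 kb, beside a low-list peak of fold 2.45 at 857.5 kb that did not overlap it. The summit of that high-list peak also lay inside an annotated pseudogene.

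IQGAP2, a scaffold for small GTPases that is abundant in liver, was the densest gene of the low list, with 6 deep peaks, 18.8 per Mb (6.90 to 40.9), 7.43 times the autosomal rate. Its 6 low-list peaks formed 3 close pairs, at 122.6 and 127.1 kb, at 157.6 and 160.6 kb and at 222.2 and 224.6 kb from the lower end (chromosome 2, 85294423 to 85633645), with folds of 2.27 to 3.86 and q of 1 throughout. The high list had 2 peaks in IQGAP2, at 12.8 and 177.2 kb, 6.26 per Mb (0.759 to 22.6), below its flanks at 19. None of the 8 peaks overlapped one of the other list.

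CTIF, a translation initiation factor gene, was dense in both lists, with 5 low-list peaks (16.6 per Mb; 5.38 to 38.7) and 13 high-list peaks (43.1 per Mb; 22.9 to 73.7), 6.55 and 3.46 times the autosomal rates. ITPR1, the inositol trisphosphate receptor that releases calcium from the endoplasmic reticulum, had 5 low-list peaks (16.1 per Mb) and 8 high-list peaks (25.7 per Mb). The strongest ITPR1 peak was a high-list peak of fold 4.21 on 15 fragments with q 0.0136, at chromosome 13, 61249000 to 61249329. CAMK1D, a calcium and calmodulin-dependent kinase gene, had 6 low-list and 8 high-list peaks. For CTIF, ITPR1 and CAMK1D the high-list rates were above those of the flanks (13, 14 and 17 per Mb).

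TENM4, a teneurin adhesion gene, had 6 low-list and 11 high-list peaks. DLG2, a synaptic scaffold gene, had 6 and 9, and KCNMA1, the large-conductance calcium-activated potassium channel, 5 and 14. SGCD, the delta sarcoglycan gene, had 5 and 4, and PDE4D, a cyclic AMP phosphodiesterase gene, 5 and 7. The high-list rates of DLG2, SGCD and PDE4D, 4.61, 3.95 and 4.70 per Mb, were under the autosomal 12.5. C4H1orf226, an open reading frame gene of 342.5 kb, completed the 5 densest of the low list with 4 low-list (12.4 per Mb) and 7 high-list peaks.

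**Figure D4:**
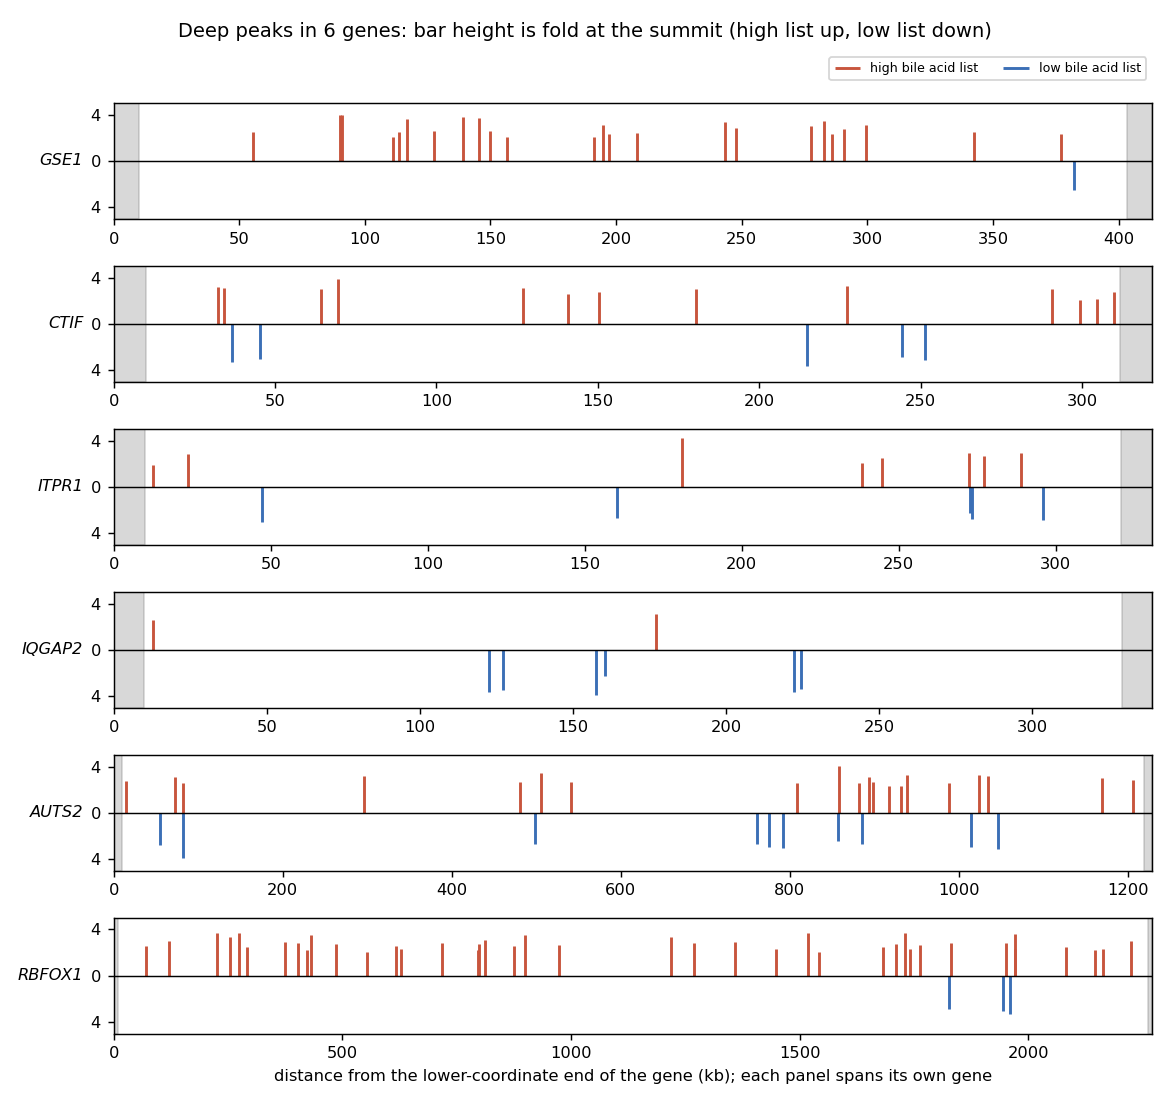
Position of every deep peak along GSE1, CTIF, ITPR1, IQGAP2, AUTS2 and RBFOX1 (x axis, kb from the lower-coordinate end of each gene), with bar height giving the fold at the summit, high list upward in red and low list downward in blue. Grey bands are the outer 10 kb that the rule leaves out. GSE1 has 24 red bars and 1 blue bar, and IQGAP2 has 2 red bars and 6 blue bars in 3 pairs.

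Set side by side, the lists overlapped at few positions. Both lists had a deep peak in 388 genes, the high list alone in 234, the low list alone in 12, and neither in 31, where 93.5% of the genes held a high-list and 60.2% a low-list peak. Peaks per Mb of the lists had a Spearman rho of 0.234 across the 665 genes, which share their length and sequence in both lists. Of the 50 genes with most peaks in each list 12 were the same. Low-list peaks made up 17.04% of all deep peaks (688 of 4037). For IQGAP2 the share was 75% (6 of 8; 34.9 to 96.8%), for SGCD 55.6% (5 of 9; 21.2 to 86.3%) and for ERBB4, the neuregulin receptor, ITPR2, a second inositol trisphosphate receptor, and NKAIN2, a sodium pump interacting protein, 66.7% each (4 of 6; 22.3 to 95.7%). At the other side RBFOX1 had 6.98% (3 of 43; 1.46 to 19.1%) and GSE1 4% (1 of 25; 0.101 to 20.35%), intervals that hold the overall 17.04%. These genes were picked from 665 by their counts, and the shares have no replicate check.

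At the level of positions, 13 low-list deep peaks overlapped a high-list peak by at least 1 bp, 1.89% of them (1.01 to 3.21%), where 3.61% of all autosomal low-list peaks did. The 13 high-list partners were 0.388% of the high-list deep peaks (0.207 to 0.663%), with 0.730% over the autosomes. Outside these interiors the shares were 3.85% (3.33 to 4.42%) in the low list and 0.776% (0.671 to 0.893%) in the high list. The overlapping pairs lay in TRPM3, C10H9orf3, ITPR1, MECOM, ADK, DLGAP2, ANKRD55, PRKCE, ALK, ASAP1, ME3, CADM1 and DGKB, 1 pair a gene.

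The pair in DGKB, a diacylglycerol kinase gene, had the highest high-list fold, 4.03 (q 0.0736) on 11 fragments at chromosome 9, 83678009 to 83678377, and a low-list fold of 2.68 on 8 fragments. The pair in ANKRD55, an ankyrin repeat gene, had the highest low-list fold, 3.94 on 12 fragments at chromosome 16, 35330574 to 35330959, and a high-list fold of 3.12 on 11. ALK, a receptor tyrosine kinase gene, had 3.61 (high) and 3.08 (low), and MECOM, a zinc finger transcription factor gene, 2.58 and 3.56. ADK, the adenosine kinase gene, had 2.75 and 3.34, and ME3, a mitochondrial malic enzyme gene, 2.34 and 2.80. All 13 low-list partners had q of 1, and no high-list partner had q under 0.05.

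The 42 high-list deep peaks with q under 0.05 lay in 41 genes, with folds of 3.90 to 5.03 on 12 to 15 fragments. MYO16, an unconventional myosin gene, had the highest fold, 5.03 (q 0.00241) on 14 fragments (95% interval 7.65 to 23.5) at chromosome 11, 76107503 to 76108028, 164165 bp from the nearer end. CACNA2D3, an auxiliary calcium channel subunit gene, had 4.97 (q 0.00274) at chromosome 13, 36614825 to 36615323, 392795 bp deep. SYNE2, which encodes the nuclear envelope protein nesprin-2, had 4.75 (q 0.00554) at chromosome 1, 194306940 to 194307364. A fold of 4.697 on 13 fragments (q 0.0106) was shared by KAZN, FAM172A, ARHGAP26 and DPYD, which encodes the first enzyme of pyrimidine breakdown and is active in liver. The DPYD peak spans 120298241 to 120298584 on chromosome 4, 366962 bp from the nearer gene end. ERC1, a vesicle tethering gene, had 4.64. PRKCE, the protein kinase C epsilon gene, was the 1 gene with 2 such peaks, of fold 4.23 and 3.98.

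The low-list deep peaks of highest fold were in THSD7B, a thrombospondin repeat gene, with 4.59 on 15 fragments (q 0.0533) at chromosome 15, 15538657 to 15539060. The summit of this THSD7B peak also lay inside an annotated lncRNA gene. PLCB4, a phospholipase C gene, had 4.31 (q 0.252), CUX1, a homeobox transcription factor gene, 4.30 (q 0.142) and ATXN7L1 4.07 (q 0.525). AUTS2, ENOX1, MAML2, a coactivator of Notch, and ANKRD55 followed with 3.94 each on 12 fragments, as did FGF14 and FBXL17, which tie with them.

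A peak called in 1 list alone is a difference of calls. To read it, the 95% interval of each peak's fragment count was set against the smallest count the caller would have taken in the other library over the same background. Among 3336 high-list deep peaks that overlap none of the low list, 5 (0.150%; 0.0487 to 0.349%) had their whole interval at or past that count, with 0.296% over the autosomes. These were the peaks named in MYO16, CACNA2D3, SYNE2 and ITPR1 and 1 in HHAT (fold 4.63), and the low library needed 7 fragments, or 8 at ITPR1. Among 675 low-list deep peaks without overlap 37 did so (5.48%; 3.89 to 7.48%), with 6.81% over the autosomes, led by THSD7B, PLCB4, CUX1 and ATXN7L1, where the high library needed 6. The pileup of the low library had been scaled by 0.881 and that of the high library had not. Fragment counts were compared without that scale, so the 5 and the 37 cannot be set side by side. Low-list peaks on 12 fragments, such as that in AUTS2, passed narrowly, with an interval from 6.20 against 6. The smallest count also rests on a caller cutoff that no source used here states. For the remaining deep peaks the missing call in the other list was not detectable as a difference at this depth.

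Gene groups were described by lists of long genes grouped by role, 254 of the 665 genes being on at least 1 list. Counts of members with a deep peak are to be read against the 93.5% (high) and 60.2% (low) of all 665 genes. Synaptic and axonal adhesion genes, which hold cells and axons together, were the least dense in the high list, with 6.22 peaks per Mb (5.42 to 7.10) over 36 genes, against 9.59 over all 665. Their low-list rate was 1.39 (1.03 to 1.84), against 1.97. These are among the longest genes, with 35.2 Mb of deep interior in all, and their high-list rate was close to the 6.37 per Mb of all genes over 1 Mb; their flanks had a median of 6 high-list peaks per Mb, against 10 over all 665 genes. High-list deep peaks were present in 34 of these 36 genes and low-list deep peaks in 23. SLIT3, an axon guidance ligand, had 16 high-list and 1 low-list peaks, NRXN3, a presynaptic neurexin, 15 and 3, and DSCAM 14 and 2. DCC, the netrin receptor, had 8 high-list peaks and none in the low list, and ROBO2, the Slit receptor, had 4 and none. CNTN5, a contactin gene of 1210 kb, had no deep peak in either list, with a 95% interval of 0 to 3.10 peaks per Mb over its 1.19 Mb.

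Cadherins, protocadherins and catenins, the adhesion proteins of cell junctions and their partners, had 7.38 high-list peaks per Mb (5.89 to 9.14) and 1.05 in the low list (0.545 to 1.84) over 13 genes, all 13 with a high-list and 7 with a low-list peak. CDH23 was dense in the high list, with 15 peaks (33.6 per Mb) and none in the low list. CDH4 had 12 and 2, and CTNNA2, an alpha catenin gene, 11 and 3. Extracellular matrix and heparan sulphate genes had 7.35 (5.90 to 9.06) and 1.25 (0.701 to 2.07) per Mb over 20 genes, 18 and 9 of them with a peak. GPC6, a glypican gene, had 13 and 2, THSD7B 13 and 1, and THSD4 9 and 1.

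Ion channels and glutamate receptors, over 42 genes, were at 9.635 (8.37 to 11.04) and 1.99 (1.44 to 2.68) per Mb, close to all genes over 300 kb. High-list deep peaks were found in 39 of them and low-list deep peaks in 24. KCNQ1, a potassium channel gene that is expressed in epithelia, had 11 high-list peaks (37.4 per Mb) and none in the low list, and KCNIP1 had 11 and 2.

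Genes of common fragile sites had 8.69 (7.56 to 9.95) and 1.599 (1.14 to 2.19) per Mb over 18 genes, all with a high-list and 13 with a low-list peak. Their range was wide, from 0.831 per Mb in CSMD3 (1 high-list and no low-list peak) to 17.8 in RBFOX1. NAALADL2 had 4 high-list and no low-list peaks.

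Cytoskeleton, polarity and vesicle traffic genes were the densest list in the high list, with 11.8 per Mb (10.3 to 13.4) over 37 genes, all with a peak, and they had 2.40 (1.77 to 3.18) in the low list, 29 with a peak. FRMD4A, a polarity scaffold gene, had 13 high-list and 1 low-list peaks, as did EXOC4, a subunit of the exocyst that tethers vesicles. PARD3B had 6 and none. Transcription factors and chromatin regulators had 11.4 (9.86 to 13.1) and 2.56 (1.86 to 3.43) per Mb over 31 genes, 29 and 24 with a peak. RORA, a nuclear receptor of circadian and lipid control, had 13 high-list and 1 low-list peaks, 3 of the former within 4.01 kb, and HDAC9, a histone deacetylase gene of 1028 kb, had 4 and none.

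Cyclic nucleotide, kinase and phospholipase signalling genes had the highest low-list rate, 2.71 per Mb (2.07 to 3.49), with 9.84 (8.58 to 11.24) in the high list, over 39 genes. All 39 had a high-list and 30 a low-list peak. PRKCE had 15 high-list and 1 low-list peaks, MAST4, a microtubule-associated kinase gene, 12 and 1, and TNIK, a kinase of Wnt signalling, 11 and 2. Genes of hepatic metabolism, nutrient and hormone receptors had 8.603 (7.35 to 10.01) and 1.997 (1.42 to 2.73) per Mb over 31 genes, 31 and 22 with a peak. Its members with most peaks were not enzymes of metabolism alone: DPP6 is a channel subunit, PRKCE a kinase also on the signalling list, and GALNT18, which had 10 and 2, a glycosyltransferase that starts O-linked sugar chains.

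**Figure D5:**
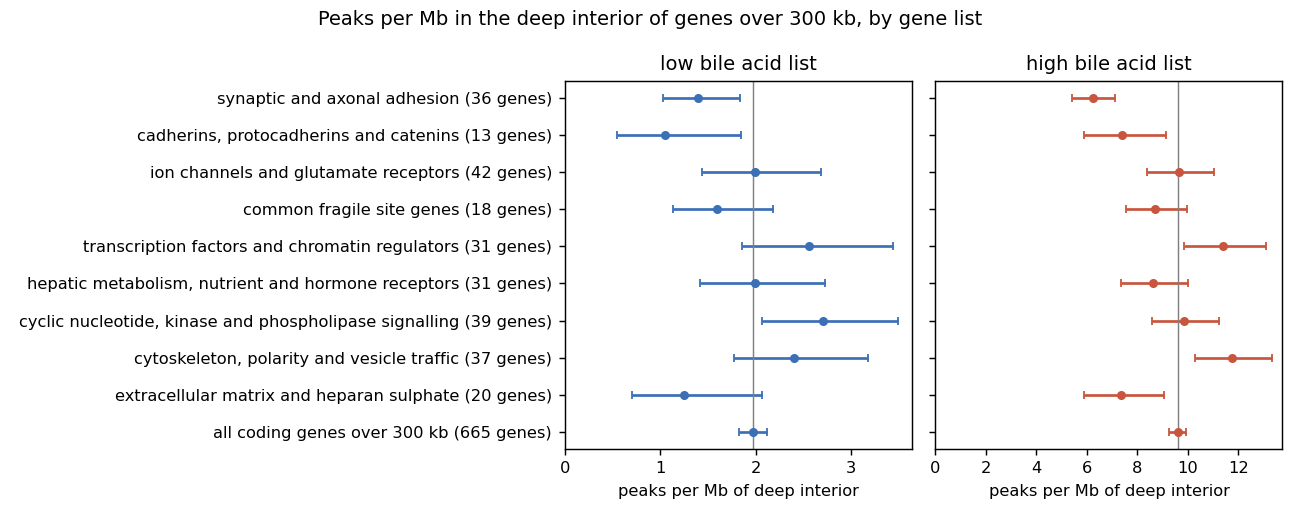
Peaks per Mb of deep interior (x axis) over the genes of each list that are longer than 300 kb, for the low (left) and high (right) peak list. Points are pooled rates, bars exact 95% intervals and the grey line the rate over all 665 genes. Synaptic and axonal adhesion genes lie lowest in the high list at 6.22 per Mb, and cytoskeleton, polarity and vesicle traffic genes highest at 11.8.

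The 5 longest genes held from 9 to 40 high-list peaks. TENM2, at 3460 kb the longest, had 14 high-list and 4 low-list peaks (4.07 and 1.16 per Mb), and TENM3, at 2584 kb, 13 and 1. PTPRD, a receptor phosphatase gene of 2181 kb, had 9 and 2, and MACROD2, a macrodomain gene of 2052 kb, 16 and 2. RBFOX1, between them in length, had 40 and 3.

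Hepatocyte markers were looked at as a check of the labelled cell type. Of 16 hepatocyte marker genes, 6 had a high-list peak inside the gene (APOB, CPS1, CYP7A1, HNF4A, TF and TTR), with 41.3% of all coding genes, and 1 (HNF4A) had a low-list peak, with 13.8%. Of 8 endothelial markers 6 held a high-list peak and 2 a low-list peak, and of 8 lymphocyte markers 1 and 0. Cholangiocyte markers had 2 (high) and 1 (low) of 6, Kupffer and myeloid markers 2 and 1 of 8, stellate and fibroblast markers 2 and 2 of 8, and erythroid markers 1 and 0 of 5. Peaks at these genes do not measure expression, and the part other cell types have in the lists was not tested.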

How the data were processed

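H4K12la chromatin immunoprecipitation libraries were analysed as 2 deposited narrow peak lists, 1 for each group; the 2 input libraries enter through the caller's background. Per the submitters' processing notes, the authors used bcl2fastq 2.17, Trimmomatic 0.33, Bowtie 1.1.2 and MACS2 2.1.0; both hg38 and Sscrofa11.1 are named, and pig coordinates were used because the samples are pig and the peaks lie on chromosomes 1 to 18, X and Y. In the lists as deposited by the authors, fold is a ratio at the summit over the local background, p-value and q-value are held as −log10, and the score was left aside. No source used here states the cutoff of the caller; p-values reached 0.00989 in each list.

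Summits were placed in genes of the RefSeq table of Sscrofa11.1 (26902 genes on chromosomes 1 to 18, including genes with LOC names). Rates count overlapping interiors once and carry exact Poisson intervals; shares carry Clopper-Pearson intervals. Fragments at the summit were solved from fold and p-value, within 0.002 in −log10 p, for 100% of autosomal peaks, with pileup scales of 0.881 (low) and 1 (high). Counting and solving were tested on simulated data. Python 3.11.15, numpy 2.4.6, pandas 2.3.3 and scipy 1.17.1 were used. No genome sequence was used here, so GC content, repeats and sequences are not reported.

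Named genes were, for each list, the 10 with most deep peaks and the 5 densest with at least 10 (high) or 4 (low) peaks. The 5 longest genes, those of the 8 strongest peaks of each list and those with overlapping peaks were named too. From each of 9 gene lists came the 3 genes with most high-list peaks. Any gene over 1 Mb on those lists without a deep peak in 1 or both peak lists was added. Others were named after their values were seen: further genes with runs of peaks, genes with more low-list than high-list peaks, FGF14, FBXL17, HHAT, POU5F2, other genes without a peak, and genes at the limits of the rule. The members and lists were chosen with earlier results of these data known. Some genes that the naming rule picks are not reported here.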

Additional observations from a re-analysis of the deposited data

How the results depend on the processing

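The alternatives recount the deep peaks, their rate and ratio to the autosomes, the genes with most peaks and the overlap between lists, and each ratio stayed under 1 (highest 0.835). With genes over 500 kb, deep peaks numbered 1598 (high) and 348 (low), at 8.08 and 1.76 per Mb and ratios of 0.649 and 0.696, and 6 of the 10 low-list genes with most peaks were kept. With genes over 200 kb the high list had 10.1 per Mb and a ratio of 0.808. At a fold of 4 or more, 79 and 4 deep peaks were left, 0.226 and 0.0115 per Mb, with ratios of 0.579 (0.463 to 0.713) and 0.328 (0.0906 to 0.808), and 0% overlapped in either list; 1 and 0 of the 10 genes with most peaks were kept. At q under 0.05, 42 and 0 were left, 0.120 and 0 per Mb, with ratios of 0.453 (0.3296 to 0.605) and 0 (0 to 1.716), 0% of the high-list peaks overlapped and 0 of the 10 high-list genes were kept. The low list then had no deep peak for an overlap or a ranking. With the high list held to the low list's number of peaks by smallest p-value, 572 high-list deep peaks were left, 1.64 per Mb, a ratio of 0.648 (0.598 to 0.6999), 3 of the 10 genes were kept and 0.291% of the low-list deep peaks overlapped. These falls in number follow from fewer genes or fewer peaks; the cause of the lower ratios was not tested. A distance of 50 kb, the whole gene, genes without LOC names and the midpoint kept the numbers of deep peaks within 1.5 times and the rates, ratios and overlaps inside the main intervals, but 7 of the 10 low-list genes were kept at 50 kb, without CTIF, ITPR1 and PDE4D, and 7 with the whole gene, without KCNMA1, SGCD and PDE4D. Removal of nested genes, run for rates and ratios, and an overlap of 50% of the shorter peak, run for overlaps, stayed inside the main intervals. No paired analysis was possible because there is 1 immunoprecipitated library a group, and none could be left out.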

Other observations

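Chromosomes differed in how far deep interiors lay below the rest. Deep high-list peaks were densest on chromosome 12, with 16.1 per Mb (12.8 to 19.96) over 13 genes, where all sequence had 23.1 per Mb. On chromosome 8, with 46 long genes, deep interiors had 8.37 per Mb, 0.955 times the rate of that chromosome, while on chromosomes 5 and 14 they had 0.581 and 0.589 times. In the low list the ratio ran from 0.588 on chromosome 12, on 11 peaks, to 1.03 on chromosome 4.

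Other annotated genes lie inside these interiors. They numbered 489, of them 217 lncRNA and 100 protein-coding genes, over 6.60 Mb. High-list peaks inside them numbered 84, at 12.7 per Mb (10.1 to 15.8), against 9.53 (9.21 to 9.86) in the rest of the interiors, and low-list peaks 13, at 1.97 per Mb (1.05 to 3.37), against 1.97. The FAM172A peak of fold 4.70 lay 2560 bp from POU5F2, a POU domain gene.

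The X chromosome is outside the rule. Its 32 coding genes over 300 kb had 18.4 Mb of deep interior, with 2 high-list and 1 low-list peaks, 0.109 and 0.0543 per Mb. The whole X chromosome held 53 high-list and 4 low-list peaks, so few were called there outside these interiors as well. Deep interiors on chromosomes 1 to 18 had 9.59 and 1.97 peaks per Mb. Whether mapping or filtering of reads lowered the X counts was not tested.

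Genes over 1 Mb with no low-list deep peak numbered 9 of 58, among them CCSER1 of 1224 kb. The high list had 1, CNTN5, and the next longest without a high-list deep peak were NEGR1 (872.0 kb, 1 low-list peak), GRIK2 (628.4 kb, 1) and DNM3 (542.5 kb, 2).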
